A study of Mus musculus with 6 samples.

Results

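Stable strong sites were accessible chromatin sites that gave a high ATAC-seq signal in every library of the series and kept within a limited range of it. They were selected on the signal itself. A site on chromosomes 1 to 19 was taken when each of the 6 signals was at least 6.5, their mean was below 65, the largest was at most 75% above the smallest and the site was narrower than 1500 bp. The rule found 1692 sites among 578591 listed, or 32.0% of the 5285 sites that met its other limits. The remaining 3593 of these 5285 sites are called varying here, and they served for comparison. The rule used the signals and a width limit, so signals and ratios between libraries are a description of the sites and not a finding about them. Which sites are stable depends on how libraries are scaled to each other. With each library centred on the median of the strong sites, a scale added after the data were seen, 5780 sites were stable and 991 varying, and 1515 of the 1692 were among the stable ones.

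ATAC-seq uses a transposase that inserts sequencing adapters where DNA is not wrapped up by nucleosomes, so reads pile up at promoters, enhancers and other sites held open by bound proteins. The cells were bone marrow-derived macrophages (BMDMs) from wild-type C57BL/6 mice (C57BL/6J in the growth protocol), grown from marrow in medium containing L929-conditioned supernatant, a usual source of MCSF, so the cells of all 6 groups had met that growth factor. Each group was 1 library, with no replicate. Untreated cells received nothing and DMSO cells the vehicle alone. The cells of the 4 groups named for it (IL-4 alone, with DMSO, with LatA or with MCSF) received interleukin-4 at 20 ng/ml for 24 hours, together with latrunculin A at 1 μM in LatA + IL-4 and with MCSF at 100 ng/ml in the MCSF + IL-4 group. Latrunculin A blocks actin polymerization and MCSF (CSF1) is a macrophage growth factor, and the study asked whether such cytoskeletal treatments alter accessibility. Animal number, age and sex are not given in the sources used here.

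Sites that stay open whatever the treatment are of interest as the constant background of a cell's regulatory landscape. In mouse and human cells in general, many of them are promoters of housekeeping genes, which have no need of a cell-specific factor, and sites bound by CTCF, the zinc finger protein that anchors chromatin loops. A cytokine such as IL-4 works mainly at another class, the distal enhancers where STAT6 and the macrophage factor PU.1 bind. Positions here are in the mm9 build, counted from 1, and no annotation or sequence of that build was used, so no stable site is assigned to any of these classes. For the same reason the labelled cell type was not checked against marker genes.

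Depth set the precision of each site. The libraries held 12387332 to 19889902 reads in sites, and the signal is CPM (reads scaled to library size) after the authors' TMM scaling. A signal of 6.5 stood for 81.1 reads in the shallowest library, DMSO + IL-4, and for 136 in the deepest, Untreated. The median stable site held 157 reads in the shallowest library and 242 in DMSO, with LatA + IL-4 equal to the latter. Together the stable sites took 2.45% of the reads in IL-4 and in Untreated, 2.58% in DMSO + IL-4, 2.77% in DMSO, 3.02% in MCSF + IL-4 and 3.24% in LatA + IL-4. The share was thus lowest in the libraries without vehicle or a cytoskeletal treatment. Intervals given below are 95% intervals, exact (Clopper-Pearson) for shares and from order statistics for medians, and they treat sites as independent draws, which neighbouring sites are not, and hold no error between libraries.

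The steadiest of the stronger sites on the deposited scale are shown first, and the rule used this ratio. Among stable sites with a mean of at least 20, the 6 with the smallest ratio of largest to smallest signal were all between 219 and 244 bp wide. The steadiest of them, chr1:19166283-19166509, spanned 227 bp. Its signal was 32.1 in Untreated, 35.0 in DMSO, 35.2 in IL-4, 31.5 in DMSO + IL-4, 35.6 in MCSF + IL-4 and 32.4 in LatA + IL-4. The ratio of largest to smallest was 1.13, no treatment stood apart, and the counts behind it ran from 393 to 670 reads. The nearest other listed site was 7142 bp away.

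At chr5:106605718-106605961, 244 bp wide, the signal was 44.3 in Untreated, 46.0 in DMSO, 39.4 in IL-4, 42.7 in DMSO + IL-4, 42.3 in MCSF + IL-4 and 42.2 in LatA + IL-4. The IL-4 library was lowest and DMSO highest, a ratio of 1.17. At chr2:92008191-92008421, 231 bp wide, the order was different. There the signal was 30.1 in Untreated, 30.8 in DMSO, 32.5 in IL-4, 33.7 in DMSO + IL-4, 35.4 in MCSF + IL-4 and 30.0 in LatA + IL-4, a ratio of 1.18. LatA + IL-4 was the lowest library here and MCSF + IL-4 the highest.

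Of the other 3 steadiest sites, all on chromosome 14, chr14:69780366-69780584 was 219 bp wide and had signals of 24.4 in Untreated, 26.3 in DMSO, 24.3 in IL-4, 26.5 in DMSO + IL-4, 26.5 in MCSF + IL-4 and 22.7 in LatA + IL-4, a ratio of 1.16. Unlike the rest it had another listed site 125 bp away and a fold enrichment of 19.3, where the others had 53.5 to 61.7. At chr14:112918036-112918264 the signal was 25.0 in Untreated, 25.4 in DMSO, 24.5 in IL-4, 21.5 in DMSO + IL-4, 25.4 in MCSF + IL-4 and 25.0 in LatA + IL-4, so DMSO + IL-4 was the lowest library, and the ratio of largest to smallest was 1.18. Its dispersion, the variance of the 6 read counts around a common rate divided by what counting error gives, was 1.19, where 1 is counting error alone. The sixth of these sites was also the strongest of all stable sites. This was chr14:119686085-119686321, with a signal of 60.3 in Untreated, 69.8 in DMSO, 59.8 in IL-4, 60.1 in DMSO + IL-4, 70.9 in MCSF + IL-4 and 66.7 in LatA + IL-4. Its ratio was 1.19, with Untreated, IL-4 and DMSO + IL-4 close together below the other libraries, and at this depth of 749 to 1258 reads its dispersion was 6.41.

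The next strongest stable sites were as narrow but less steady. At chr6:56183569-56183819, 251 bp wide, the signal was 75.1 in Untreated, 72.9 in DMSO, 58.3 in IL-4, 58.3 in DMSO + IL-4, 64.9 in MCSF + IL-4 and 56.4 in LatA + IL-4. All 4 libraries with IL-4 lay below both libraries without it. At chr14:59277442-59277702, 261 bp wide, it was 59.2 in Untreated, 55.4 in DMSO, 58.0 in IL-4, 58.0 in DMSO + IL-4, 84.7 in MCSF + IL-4 and 65.3 in LatA + IL-4. Here MCSF + IL-4 stood alone above the rest, and the ratio was 1.53 against 1.33 at the site on chromosome 6.

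Most stable sites were less even than these. The ratio had a median of 1.62, ran from 1.12 up to the limit and was above 1.5 at 1324 of 1692 sites (78.3%), so the rule's limit cut through a crowded range. At 32 sites the ratio was 1.25 or less, and 16 of these were under 300 bp. The mean signal had a median of 13.6 and ran from 6.97 to 64.6. With a limit of 1.5 on the ratio 368 sites would remain, and with a limit of 2 there would be 3383.

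**Figure D1:**
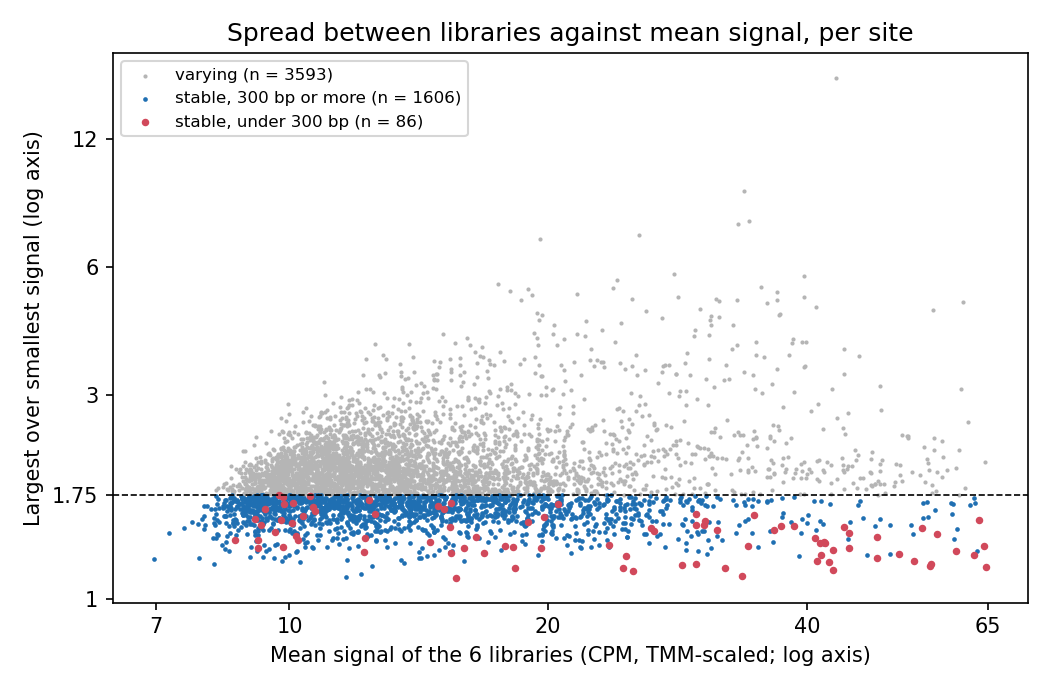
The ratio of the largest to the smallest of the 6 signals (vertical, log axis) is plotted against the mean signal in CPM (horizontal, log axis) for the 1692 stable sites, with those under 300 bp marked, and the 3593 varying sites. The dashed line is the limit on the ratio. Stable and varying sites form 1 continuous cloud across the line, and the marked narrow sites reach the highest means at low ratios.

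Sites on both sides of the limit looked alike. Just within it, chr7:74789671-74790739 had a signal of 12.4 in Untreated, 14.1 in DMSO, 12.8 in IL-4, 13.7 in DMSO + IL-4, 20.2 in MCSF + IL-4 and 21.7 in LatA + IL-4. Just above it, chr1:97209825-97211082 had 11.4 in Untreated, 13.5 in DMSO, 12.3 in IL-4, 12.3 in DMSO + IL-4, 18.6 in MCSF + IL-4 and 19.9 in LatA + IL-4. In both, LatA + IL-4 and MCSF + IL-4 lay above the other 4 libraries. The other sites nearest the limit were chr15:84817428-84818913 and chr2:177629390-177629661 within it, and chr5:66503211-66503773 and chr12:60320349-60321237 above it, and LatA + IL-4 was the highest library at all of them. The nearest values inside and outside the other limits were 6.52 and 6.49 for the smallest signal, 64.6 and 65.1 for the mean, and 1497 and 1511 bp for the width.

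The far end of the varying sites shows what the rule left out. At chr9:66725248-66725845, 598 bp wide, the signal was 6.66 in Untreated, 12.5 in DMSO, 28.5 in IL-4, 42.8 in DMSO + IL-4, 111 in MCSF + IL-4 and 57.7 in LatA + IL-4. Both libraries without IL-4 lay below the 4 with it, and the ratio of 16.7 was the largest of all varying sites. The same split was seen at the 2 sites with the next largest ratios, chr15:86081549-86082178 at 9.04 and chr14:13122266-13122799 at 7.69.

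Within their narrow range the stable sites were not scattered evenly about their means. Their median signal was 11.3 in Untreated, 14.1 in DMSO, 11.5 in IL-4, 12.6 in DMSO + IL-4, 15.5 in MCSF + IL-4 and 16.5 in LatA + IL-4. The highest signal was in LatA + IL-4 at 1080 sites (63.8%) and in MCSF + IL-4 at 384 (22.7%), and the lowest was in Untreated at 863 (51.0%) and in IL-4 at 556 (32.9%). These ranks hold on the deposited scale. Varying sites had the same order, with LatA + IL-4 highest at 2413 of 3593 (67.2%) and Untreated lowest at 2053 (57.1%).

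To place this order beside the whole table, normalized reads were compared at 132057 sites, those that averaged 20 or more, and a site was called where 2 libraries differed by 1.5-fold or more. LatA + IL-4 was above DMSO + IL-4 at 324 stable sites (19.1%) and below it at 8, and over all tested sites 30.1% were above and 15.7% below. The median log2 ratio was 0.42 at stable sites, 0.63 at varying sites weighted to the same mean signal, and 0.20 over all tested sites. MCSF + IL-4 was above IL-4 at 374 stable sites (22.1%) and below it at 3, beside 29.2% and 14.9% of all tested sites. The medians were 0.43, 0.63 and 0.16 in the same order. With total reads as the scale the medians at stable sites were 0.38 for LatA + IL-4 and 0.36 for MCSF + IL-4. Centring each library on the median of the strong sites removes a shift common to them, which ran from -0.34 log2 in Untreated to 0.43 in LatA + IL-4, and by construction leaves stable sites near or below 0, at -0.14 and -0.11. A ratio limit bounds how many sites can be called, so the counts say nothing on whether stable sites respond less.

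Few stable sites passed 1.5-fold with IL-4, as their selection ensured. IL-4 was above Untreated at 5 stable sites and below it at 13, beside 20.8% and 8.88% of all tested sites. DMSO + IL-4 was above DMSO at 2 and below it at 48, beside 16.6% and 12.8%. The median log2 ratio was 0.04 without vehicle and -0.18 with DMSO, it was 0.10 and -0.13 at weighted varying sites, and it was 0.10 and 0.01 over all tested sites. Scaled by total reads, the medians at stable sites were 0.0084 and -0.11. Centring on the strong sites, which sets their balance near 0, left -0.04 and -0.02.

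The libraries that differed in vehicle alone were not level either. DMSO was above Untreated at 43 stable sites and below it at 1, beside 16.8% and 7.24% of all tested sites, and the median log2 ratio was 0.34 at stable sites, 0.37 at weighted varying sites and 0.18 over all tested sites. The split of calls over the whole table rests on the scaling. Scaled by total reads, 50.2% of the called sites in the whole table were above, in place of 69.8%, and the median at stable sites was 0.21. Centring on the strong sites left -0.02, as it removes their common shift. DMSO + IL-4 was above IL-4 at 3 stable sites and below it at 1, beside 11.2% and 9.8%, with a median of 0.10 at stable sites, 0.07 there when scaled by total reads and -0.03 on the centred scale, 0.14 at weighted varying sites and 0.06 over all tested sites. The IL-4 comparisons share libraries with the vehicle comparisons and with those of LatA + IL-4 and MCSF + IL-4, so these values are not independent of each other. Every ratio compares 2 libraries and not 2 conditions.

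The dispersion of the stable sites had a median of 7.71, beside 16.5 at varying sites weighted to the same mean. It was below 2 at 43 stable sites (2.54%, interval 1.85 to 3.41) and at none of the varying sites. Separate libraries differ by more than counting error as a rule, and the dispersion follows from the same signals as the ratio, so these values are a description.

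Width was limited by the rule but otherwise not used by it, and it split the stable sites into 2 groups. Widths of stable sites had a main mode near 800 bp and a separate small one at 200 to 249 bp, with few sites of 300 to 349 bp between them. The median was 842.5 bp (829 to 861) for stable sites and 876 bp for varying sites weighted to the same mean, a difference of -33.5 bp. Under 300 bp lay 86 stable sites (5.08%, 4.09 to 6.24) and 43 varying ones (1.20%, or 1.31% weighted). Of the 129 sites under 300 bp within the other limits, 66.7% (57.8 to 74.7) were stable, while the share was 27.6% to 33.9% in each wider class. The direction of this contrast rests on the scaling. With total reads as the scale, 3.64% of stable and 1.41% of weighted varying sites were under 300 bp, but with libraries centred on the strong sites the shares were 1.00% and 4.47%. The difference in median width likewise became 107 bp on the centred scale, with stable sites the wider ones. The width classes were chosen after the values had been seen, and no test was made.

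**Figure D2:**
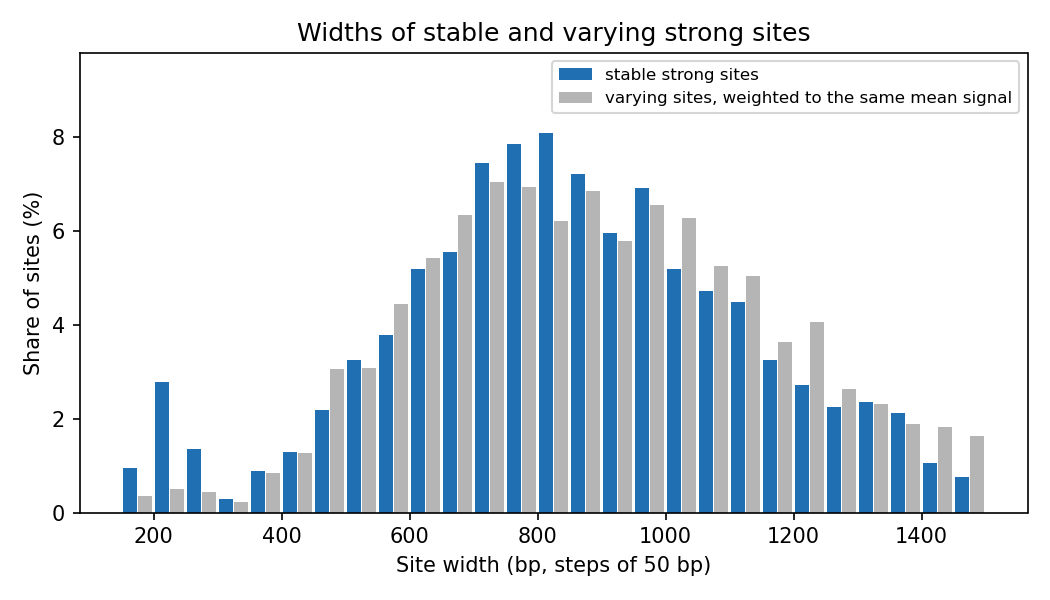
The share of sites in percent (vertical) is drawn in steps of 50 bp of width (horizontal) for stable sites and for varying sites weighted to the same mean signal. Between 200 and 249 bp lay 2.78% of stable sites and 0.497% of the weighted varying sites on the deposited scale, an excess that is reversed for sites under 300 bp on the centred scale, and both sets had their main mode between 700 and 900 bp.

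The narrow stable sites differed from the wide ones in more than width. Their median mean signal was 24.6, beside 13.5 at stable sites of 300 bp or more, and per 100 bp of site the signal was 11.3 beside 1.67. Their median ratio, which the rule limited, was 1.39 beside 1.63, without matching on mean signal. At varying sites it was 2.18 under 300 bp and 2.01 at the wider ones. From narrow stable sites the nearest other listed site lay 5182 bp away at the median, beside 1769 bp from wide ones. Of the 86 narrow sites, 47 had none within 5 kb. On the deposited scale, narrow varying sites were not isolated in this way. The nearest listed site lay 922 bp from them at the median, and 9 of 43 had none within 5 kb. On the centred scale 58 narrow sites were stable and 66 varying, and their distances were not computed.

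The authors' peak lists were made for each library from the same reads as the signal. A peak was called in all 6 lists at 1684 of 1692 stable sites (99.5%, 99.1 to 99.8) and at 99.7% of varying sites, which the floor on the signal of the same reads made nearly certain for both. Fold enrichment of a peak over its local background, taken as the median of the 6 lists, was 17.6 at stable and 15.3 at weighted varying sites, and 15.6 and 15.1 on the centred scale. It was 52.1 at stable sites under 300 bp and 17.3 at the wider ones. Enrichment was over 40 at 73 stable sites (4.31%, 3.40 to 5.39), 63 of them under 300 bp, and at 26 varying sites (0.724%, 0.473 to 1.06). Of the 99 sites over 40 within the other limits, 73.7% (63.9 to 82.1) were stable. The share did not rise steadily with enrichment, as it was 44.1% from 20 to 30 and 26.0% from 30 to 40. On the centred scale the contrast over 40 was reversed, with 0.640% of stable and 3.42% of weighted varying sites there.

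The methods name no control for peak calling, so the local background of an isolated peak includes its own reads and its enrichment cannot rise without limit. The highest value at any stable site was 63.3, and no steadiness between libraries was read from this measure. Summits of the 6 lists lay within 32.5 bp of each other at the median narrow site and within 42 bp at the wider ones. Peaks covered 99.0% of a narrow site and 84.9% of a wide one. Not every narrow site was strongly enriched, since the enrichment was under 5 at 6 of the stable and at 21 of the varying ones.

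**Figure D3:**
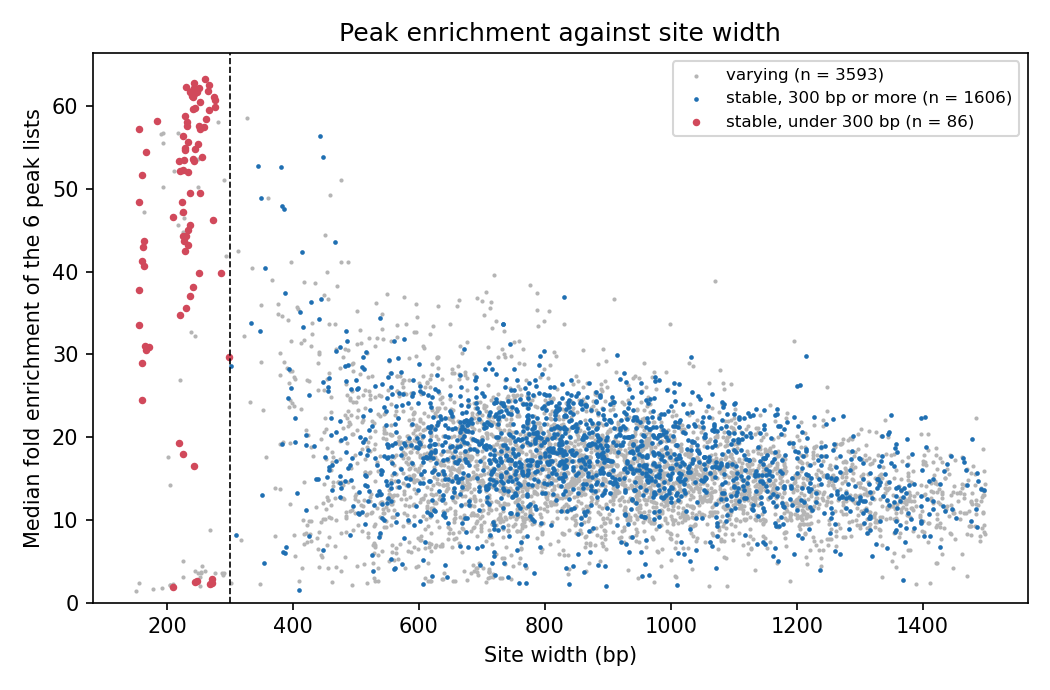
Fold enrichment, the median of the 6 peak lists (vertical), is plotted against site width in bp (horizontal), with stable sites under 300 bp marked and a dashed line at 300 bp. Most marked sites lie in a column between 30 and 63.3, above nearly all wider sites, and 6 lie under 5.

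By library, the narrow stable sites did not follow the order of the wide ones. LatA + IL-4 over DMSO + IL-4 had a median log2 ratio of 0.00 at the 86 narrow sites and 0.43 at the 1606 wider ones, and MCSF + IL-4 over IL-4 had 0.16 and 0.45. The same split was seen at varying sites, where the medians at narrow and wider sites were -0.17 and 0.63 for LatA + IL-4 and -0.12 and 0.65 for MCSF + IL-4, so it is not particular to stable sites. At stable sites the difference between narrow and wide sites was -0.43 for the first and -0.29 for the second. For these same sites it does not depend on the scaling of a library, which moves narrow and wide sites alike. The sites were chosen on the deposited scale and under a ratio limit, so the size of the difference rests on the rule. The medians themselves depend on the scaling. On the centred scale the medians were -0.55 and -0.12 for LatA + IL-4, and -0.39 and -0.10 for MCSF + IL-4. DMSO over Untreated had a median of 0.12 at narrow and 0.34 at wide sites on the deposited scale, and of -0.24 and -0.02 on the centred one. As deposited, the highest signal was in LatA + IL-4 at 15 narrow sites, in MCSF + IL-4 at 23, in DMSO at 21, in Untreated and in DMSO + IL-4 at 11 each, and in IL-4 at 5.

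The narrowest stable sites shared a low Untreated signal with the wide ones, but not a high LatA + IL-4 signal. There were 16 of 155 to 184 bp, with a gap up to the next stable site at 209 bp. The 3 narrowest were chr1:57070940-57071094 and chr3:86646038-86646192 at 155 bp and chr8:119652313-119652468 at 156 bp. At chr3:86646038-86646192 the signal was 25.9 in Untreated, 34.1 in DMSO, 37.5 in IL-4, 31.5 in DMSO + IL-4, 32.1 in MCSF + IL-4 and 27.5 in LatA + IL-4. Untreated and LatA + IL-4 were the lowest libraries. At chr8:119652313-119652468 the signal was 12.9 in Untreated, 19.1 in DMSO, 15.5 in IL-4, 16.1 in DMSO + IL-4, 14.0 in MCSF + IL-4 and 14.7 in LatA + IL-4. For chr1:57070940-57071094 it was 10.6, 14.7, 11.5, 14.0, 11.3 and 11.5 in the same order of libraries. DMSO was highest and Untreated lowest at both.

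As a class, these 16 sites lay -0.24 ± 0.13 from their own mean log2 signal in Untreated (mean ± SD over sites, which are not replicates). They lay 0.23 ± 0.12 above it in DMSO, 0.12 ± 0.14 above it in DMSO + IL-4, and at -0.13 ± 0.11 in LatA + IL-4. Untreated was the lowest library at 12 of the 16 and DMSO the highest at 10, while LatA + IL-4 was the highest at none. Stable sites of 300 bp or more lay about as low in Untreated, at -0.25 ± 0.14. They lay at 0.07 ± 0.13 in DMSO and at 0.30 ± 0.15 in LatA + IL-4. Varying sites under 200 bp were not taken as a class. At the 70 sites of 200 to under 300 bp the same values were -0.0039 ± 0.18 in Untreated, 0.05 ± 0.14 in DMSO, 0.03 ± 0.18 in LatA + IL-4, -0.03 ± 0.15 in DMSO + IL-4, 0.07 ± 0.17 in MCSF + IL-4 and -0.11 ± 0.15 in IL-4. The largest departure of this class, in IL-4, was about as large as that of the class under 200 bp in DMSO + IL-4. These signs are those of the deposited scale and depend on it. For these same sites the distance between classes within a library does not.

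**Figure D4:**
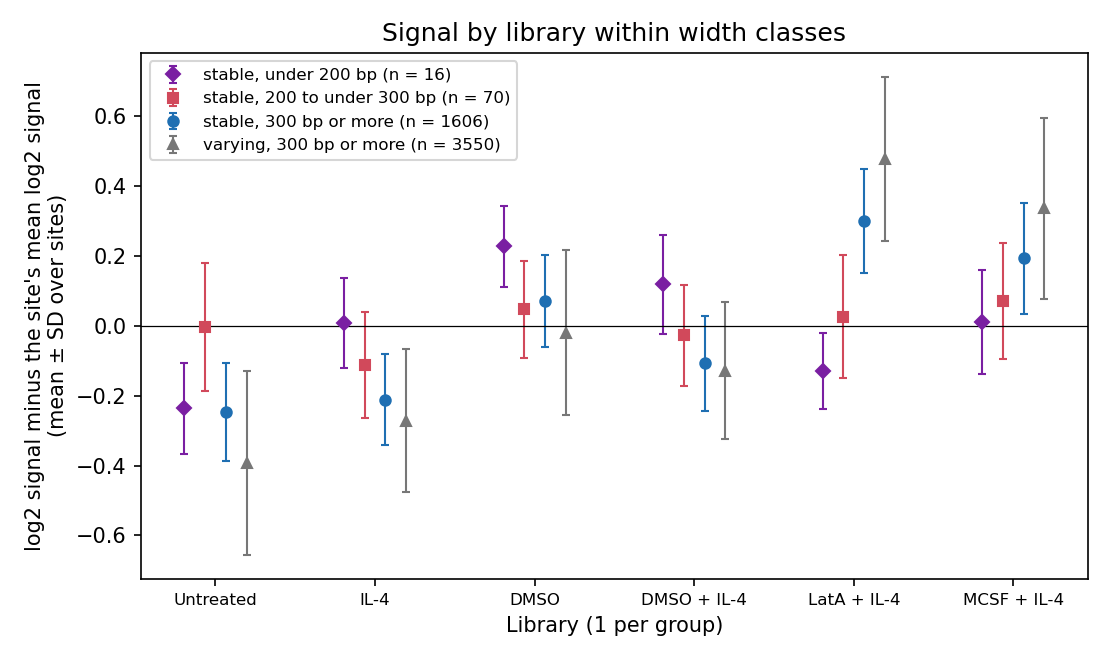
For each library (horizontal, 1 per group) the log2 signal minus the site's own mean over the 6 libraries (vertical) is drawn as the mean with bars of 1 SD over sites, for 4 classes of sites. Wide stable sites rise to 0.30 in LatA + IL-4 and wide varying sites to 0.48, stable sites of 200 to under 300 bp run from -0.11 for IL-4 up to 0.07 for MCSF + IL-4, and those under 200 bp peak at 0.23 in DMSO and fall to -0.13 in LatA + IL-4. A change of the scaling of a library moves all its points together, so directions from 0 depend on it. For the sites as chosen on the deposited scale, distances between classes in 1 library do not.

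Stable sites stood farther from other sites. Another listed site lay within 1 kb of 37.7% of them (35.4 to 40.1) and of 42.8% of weighted varying sites, and none lay within 5 kb of 23.0% (21.0 to 25.1) and 15.7%. Another strong site, meaning any listed site with every signal at least 6.5, lay within 100 kb of 55.6% of stable sites (53.2 to 57.9) and of 67.8% of weighted varying sites. Without sites under 300 bp in either set, 39.3% of stable and 42.2% of weighted varying sites had a listed site within 1 kb, 21.3% and 15.5% had none within 5 kb, and 56.8% and 67.4% had a strong site within 100 kb. With the sets chosen on the centred scale the differences kept their direction but shrank, to 41.3% and 44.1%, 16.5% and 14.9%, and 62.4% and 64.3%. The strong neighbours were still those of the deposited scale.

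By chromosome, the stable share of the sites within the other limits ran from 28.0% (23.1 to 33.3) on chromosome 10 to 37.8% (32.3 to 43.5) on chromosome 8, and these intervals overlap.

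A small number of stable sites had many reads without standing out from their surroundings. Enrichment was under 5 at 39 stable sites (2.30%, 1.64 to 3.14) and at 106 varying sites (2.95%), and 29 of the 39 fell into 7 stretches in which sites followed each other at less than 5 Mb. On chromosome 11, 6 of them lay between positions 3033908 and 3093741. One of these, chr11:3046715-3047673, had a signal of 30.3 in Untreated, 36.5 in DMSO, 38.9 in IL-4, 41.2 in DMSO + IL-4, 33.3 in MCSF + IL-4 and 38.7 in LatA + IL-4, with an enrichment of 4.66. DMSO + IL-4 was its highest library and Untreated its lowest.

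On chromosome 2, 4 low-enrichment sites between positions 175098134 and 177629661 resembled each other closely. They were 244 to 272 bp wide, their mean signals ran from 9.72 to 10.1, their enrichments from 2.36 to 2.83, and each had its nearest listed site 1788 to 1837 bp away. At chr2:177629390-177629661, the one nearest the ratio limit, the signal was 6.95 in Untreated, 8.81 in DMSO, 11.4 in IL-4, 9.22 in DMSO + IL-4, 9.79 in MCSF + IL-4 and 12.2 in LatA + IL-4. At chr2:175098134-175098377 it was 7.05, 9.04, 10.6, 9.78, 11.0 and 11.7 in the same order of libraries. Untreated was lowest and LatA + IL-4 highest at both. The aligner was allowed to report several positions per read, and how many reads such sites have in common was not tested. These sites were picked out after their values had been seen.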

How the data were processed

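Members, width classes, the 300 bp and enrichment marks and the 5 Mb stretches were chosen with earlier results of these data known. The authors trimmed reads with Cutadapt, aligned them to mm9 with Bowtie2 (several alignments per read allowed), removed duplicates with Picard, called peaks with macs2 and counted reads with featureCounts; their versions and the joining of sites across libraries are not given in the sources used here. Whether featureCounts counted such reads more than once is not given there. The deposited signal is CPM scaled by the authors with TMM factors in edgeR, and whole reads were recovered for 100% of values, within 0.0001 of a whole number. The deposited peak lists give a fold enrichment (ratio), used as the median of the 6 lists. The −log10 q-value in the deposited lists served as a stricter threshold, and the deposited score was not used.

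Reads were divided by the deposited scale and multiplied by its geometric mean, and log2 ratios were taken with 1 read added for sites averaging 20 or more. Varying sites were weighted so that 20 bins of mean signal held the same shares as the stable sites, 19 of which lay below the lowest mean of any varying site. Each group has 1 library, so no test was made. Named sites were the 6 steadiest with a mean of at least 20, the 3 strongest, the 3 narrowest, the 3 on each side of the ratio limit, the 2 nearest the mean limit (which are also the 2 strongest), the 3 varying sites of largest ratio and examples chosen after their values were seen. The rule, the fold call and the weights were also run on simulated counts. Apart from sites changed on purpose, these held counting error alone and no shift between libraries. The data have more of both, so this checks the computation and not how the rule behaves here. Python 3.11.15, pandas 2.3.3 and SciPy 1.17.1 were used. The chromosome 1 sites reached position 197195351 and the GRCm38 genes only 195291439, a build mismatch, so genes, gene lists, marker genes, motifs and sequence are not analysed here.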

Additional observations from a re-analysis of the deposited data

Results flagged for a closer look

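The 2 IL-4 comparisons went opposite ways at stable sites. The median log2 ratio was 0.038 for IL-4 over Untreated and -0.18 for DMSO + IL-4 over DMSO, with 1 library on each side, and the difference was not tested. Varying sites weighted to the same mean signal had 0.10 and -0.13, so this is not particular to stable sites. Over the same 1692 sites the medians were 0.0084 and -0.11 when scaled by total reads. Centring on the strong sites, which sets their balance near 0, left -0.04 and -0.02, the same sign in both.

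Chromosome X lay outside the rule, and 131 of its 265 sites that passed the other limits also passed the ratio limit (49.4%, exact 95% interval 43.3 to 55.6), beside 32.0% on chromosomes 1 to 19. These shares are those of the deposited scale. On chromosomes 1 to 19 the share was 43.3% with total reads and 85.4% on the centred scale. That of chromosome X was not computed on those scales, so which share is higher there is not known. At the 131 sites the median log2 ratio was -0.34 for LatA + IL-4 over DMSO + IL-4 and -0.30 for MCSF + IL-4 over IL-4. Over all tested sites of chromosome X the medians were -0.14 and -0.16, and over those of chromosomes 1 to 19 they were 0.23 and 0.19. The 131 sites had a median width of 781 bp, 2 were under 300 bp, and their nearest listed site lay 342 bp away at the median.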

How the results depend on the processing

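The number of stable sites, 1692, depended on its limits, the scaling and the libraries used. It was 368 with a ratio limit of 1.5, 3383 with a limit of 2, 951 with a floor of 10, and 5780 with libraries centred on the strong sites, an alternative added after seeing the data, of which 1515 were among the 1692 (89.5% of these and 26.2% of the 5780). With total reads as the scale it was 2416, of which 1672 were shared. Leaving out each library in turn gave 1737 (without DMSO) to 3136 (without Untreated), and 3103 without LatA + IL-4. The rule then asks fewer libraries to be alike. Of the libraries at stable sites, Untreated was most often the lowest (51.0%) and LatA + IL-4 most often the highest (63.8%). Stable sites under 300 bp numbered 58 of 5780 (1.00%) on the centred scale and 101 of 3383 (2.99%) with a ratio limit of 2, against 86 of 1692 (5.08%). With a ratio limit of 1.5 they numbered 62 of 368 (16.8%). The share with a peak in all 6 lists was 98.9% with a ratio limit of 1.5. The share with another listed site within 1 kb was 23.2% when neighbours needed a mean of 20 normalized reads and 31.0% with a ratio limit of 1.5. On the centred scale, LatA + IL-4 was 1.5-fold above DMSO + IL-4 at 1.06% of the sites then stable and MCSF + IL-4 above IL-4 at 1.25%, and with total reads the latter was 17.9%. Over the sites stable on each scale, the IL-4 medians were 0.019 (total reads) and -0.0031 (centred) without vehicle, and -0.11 and -0.0092 with DMSO. Without the filter on reads, sites past 1.5-fold numbered 271614 for IL-4 against Untreated (39229 with it), 283312 for DMSO + IL-4 against DMSO (38825), 253094 for DMSO against Untreated (31690), 262454 for DMSO + IL-4 against IL-4 (27780), 320973 for LatA against DMSO, both with IL-4 (60479), and 315612 for MCSF + IL-4 against IL-4 (58222). The width difference of -33.5 bp ran from -20.5 to -48.5 bp over alternatives on the deposited scale. Stable minus varying reversed on the centred scale for median width (107 bp), for the share under 300 bp (-3.47 points, from 3.78) and for enrichment over 40 (-2.78, from 3.49), while for median enrichment (0.533, from 2.33), a listed site within 1 kb (-2.74, from -5.10), none within 5 kb (1.59, from 7.26) and a strong site within 100 kb (-1.96, from -12.2) it shrank. With total reads it was 2.23 for the share under 300 bp, 2.16 for enrichment over 40 and -3.31 for a listed site within 1 kb. Strong neighbours were those of the deposited scale throughout. Gene starts were not analysed here. No fit by replicate number can be made with 1 library per group, and an additive fit with vehicle as a term over the 6 libraries was not run. Sites near the floor, which stands for 81.1 reads in the shallowest library, have the least precise ratios.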
